A study of Canis lupus familiaris with 4 samples.

Results

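The genes for 8 secreted inhibitors of Wnt signalling, SFRP1, SFRP2, SFRP4, SFRP5, DKK1, DKK2, DKK3 and WIF1, were followed in the captured methylated DNA of a pair of canine lymphoma lines. The genes were chosen by name, as genes often silenced by promoter methylation in tumours, and their regions are those that the deposited tables assign to them. These 8 genes are among 14273 named genes with at least 1 region, and they held 18 of 82247 regions in CLBL-1 and 16 of 123421 regions in CLBL-1 8.0.

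CLBL-1 is a cell line from a canine diffuse large B-cell lymphoma, labelled as lymph node and as not chemoresistant. CLBL-1 8.0 is the doxorubicin-resistant line derived from this parental line, maintained in medium with 8 µM doxorubicin, and the sources used here do not say whether it is a single clone. Genomic DNA was analysed by MethylCap-seq, in which a methyl-binding domain protein captures methylated fragments, preferably those dense in CpG, and low and high salt buffers elute them as 1 low-methylated and 1 medium to high-methylated library per line. The 4 libraries form 4 groups of 1, and the tables give a single list of regions per line, so no difference below has a replicate check and no p-value can be given.

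Wnt ligands act on a cell by binding Frizzled receptors together with the co-receptors LRP5 and LRP6, which stabilises beta-catenin in the cytoplasm. The SFRP proteins carry a Frizzled-like cysteine-rich domain and WIF1 a domain of its own, and both kinds bind Wnt ligands outside the cell. DKK1 and DKK2 instead bind LRP5 and LRP6, while DKK3 is a divergent relative with a less settled role in the pathway. In human tumours, blood cancers included, CpG islands at the starts of several of these genes are frequently methylated, and the transcripts are then low. The assay used here measures methylated DNA and not expression.

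Read depth is unknown, and the tables do not keep the eluates apart. A gene without a region is therefore not shown to be unmethylated. The fold enrichment of a region is the authors' linear ratio, and what it is relative to is not stated in the tables. The authors name their regions DMR but give no sample they were compared with, and the regions are treated here as DNA enriched by the capture in 1 line. Folds describe and rank regions within a list, and those of both lists are set side by side without reading a change from them. Percentiles are ranks within a list, and as the lists differ in length, they show no change between the lines. The median folds over all regions were 5.95 in CLBL-1 and 5.06 in CLBL-1 8.0. Where 1 region of each list overlapped only the other, the CLBL-1 fold was the higher in 77.4% of 71548 pairs. The same held in 14 of the 17 such pairs with a member. Among B cell genes, CD79B and PAX5 had a promoter region in both lists and CD79A had no region in either. Among 7 T cell, myeloid and stromal markers, 2 had one in CLBL-1 and 3 in CLBL-1 8.0. Since these are marks on DNA, the labelled cell type could not be checked further.

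Any region at all was assigned to all 8 genes in the parental line and to 7 of 8 in the resistant one, where 63.0% and 76.3% of 17395 named protein-coding genes had one. The starts of all 8 antagonist genes lay in or within 1000 bp of captured DNA in both lines. Regions within 1000 bp of the transcription start, whatever gene they were assigned to, were found for 8 of 8 genes in each list. Over 14234 named genes whose start could be placed from the deposited distances, 41.5% had such a region in CLBL-1, 47.3% in CLBL-1 8.0 and 39.9% in both. A gene enters this background only if it has a region somewhere in either list, as all 8 members do. The start base itself was covered for 6 genes in CLBL-1, all but SFRP1 and SFRP2. In CLBL-1 8.0 it was covered for 4, the 3 DKK genes and WIF1. At SFRP4 and SFRP5 the CLBL-1 8.0 region began 47 and 23 bp downstream of the start. The share of all genes with a covered start base was not computed, so these counts have no background.

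**Figure D1:**
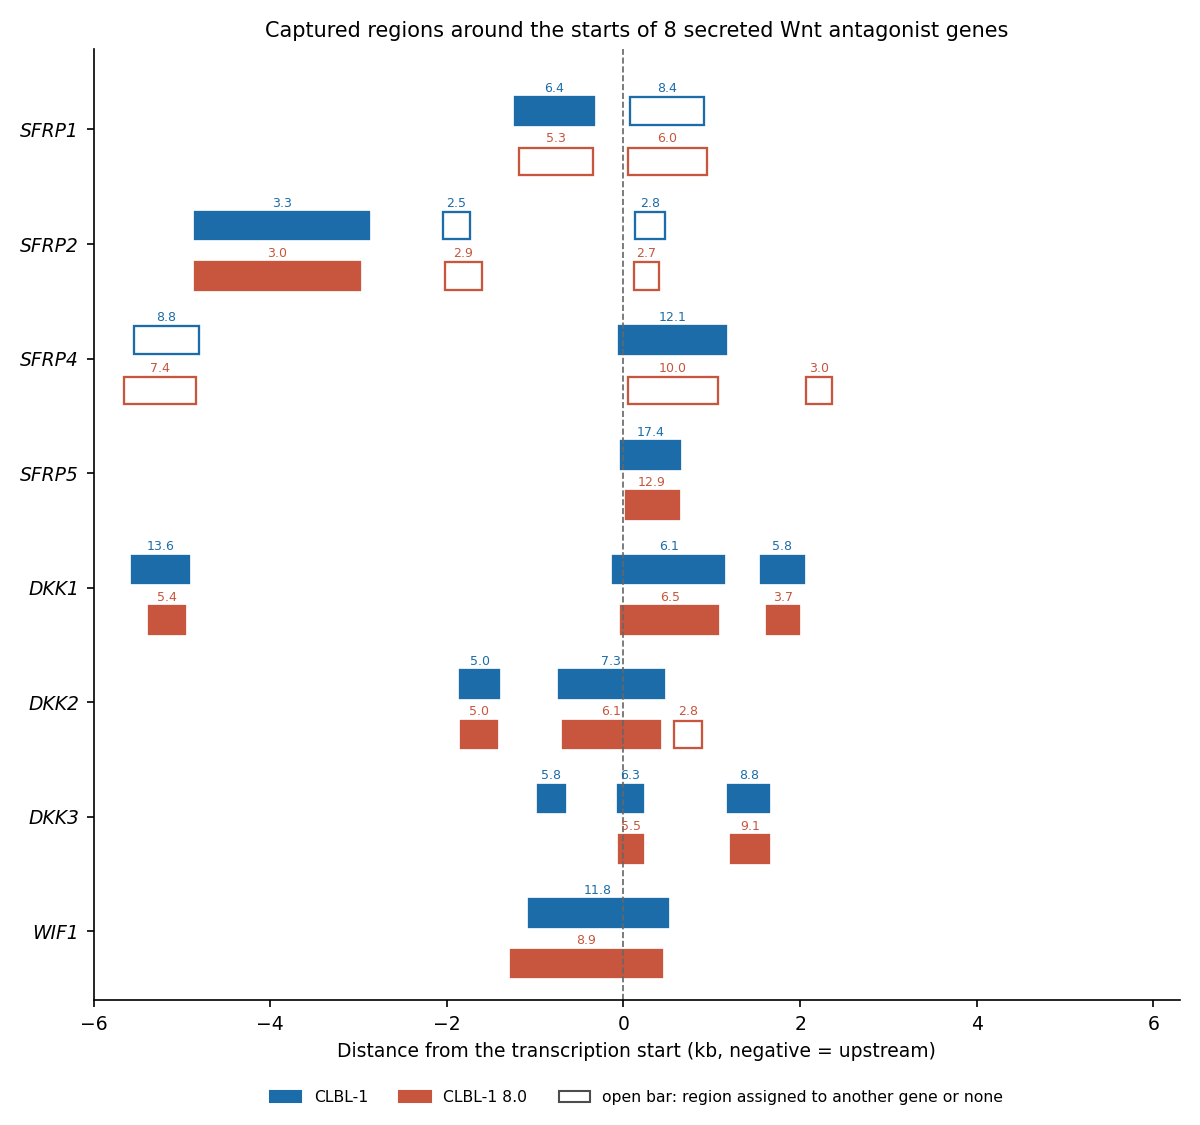
Captured regions from 6 kb upstream to 6 kb downstream of each transcription start (dashed line; x axis in kb along the direction of transcription), with CLBL-1 above and CLBL-1 8.0 below for each gene. Filled bars are regions assigned to the gene and open bars regions assigned to another gene or to none, and the number above a bar is its fold enrichment. Near the starts nearly every CLBL-1 bar has a CLBL-1 8.0 bar under it, while the filled bars of SFRP1 and SFRP4 become open ones.

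By the promoter flag of the tables, the lines looked different. In CLBL-1 a promoter region was present at all 8, 10 regions in all, against 28.8% of the named protein-coding genes. In CLBL-1 8.0, 5 genes had one (SFRP2, DKK1, DKK2, DKK3 and WIF1), 6 regions in all, against 35.7%. SFRP1, SFRP4 and SFRP5 were the 3 genes flagged in the parental line alone. Of all genes flagged in CLBL-1, 8.39% lacked the flag in CLBL-1 8.0, and at 66.2% of those a flagged region still overlapped a region of the resistant line. Each of the 3 SFRP regions also met one. The following 3 paragraphs give what was listed at each of them.

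SFRP5, a Wnt-binding antagonist known from adipose tissue and gut, had the highest fold of all member regions in both lists. Its only CLBL-1 region lay on chromosome 28 at 10998916 to 10999577, in a CpG island shore, with a fold of 17.4, at percentile 96.4 of that list. The only CLBL-1 8.0 region ran from 10998927 to 10999529 with a fold of 12.9, at percentile 97.1. It lay wholly inside the CLBL-1 region. The transcription start is at 10999552 on the minus strand, so the CLBL-1 region reached 25 bp past it and the CLBL-1 8.0 region ended 23 bp short of it. The promoter flag marks regions that meet the 3000 bp upstream of the start, and that difference in the region's edge goes with the change in the flag. The location class also went from intron to coding sequence, with starts 11 bp apart.

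SFRP4, which is known for its expression in bone and reproductive tissues, was the only member without any region assigned to it in CLBL-1 8.0. In CLBL-1 its only region was on chromosome 18 at 12018003 to 12019214, from 46 bp upstream to 1165 bp downstream of the start, with a fold of 12.1 (percentile 84.1). In CLBL-1 8.0 a region at 12018096 to 12019125 with a fold of 10.0 lay inside it and shared 1029 bp, but was assigned to LOC106559945. The start of that predicted gene lies 477 bp upstream of SFRP4 on the opposite strand. The CLBL-1 8.0 region began 47 bp downstream of the SFRP4 start and was classed as island, where the CLBL-1 region was classed as shore. A second CLBL-1 8.0 region, 2065 to 2363 bp downstream of the start with a fold of 3.04, had no CLBL-1 counterpart.

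SFRP1 had a pair of regions on either side of its start in both lists. The upstream one in CLBL-1, on chromosome 16 at 24261218 to 24262112, lay outside islands and shores with a fold of 6.39 and was assigned to SFRP1. Its CLBL-1 8.0 counterpart at 24261265 to 24262109, with a fold of 5.27, shared 844 bp with it and was assigned to LOC111090277. This predicted gene starts 710 bp upstream of SFRP1 on the opposite strand. The region just downstream of the SFRP1 start, from 72 to 910 bp in CLBL-1 (fold 8.42) and from 49 to 946 bp in CLBL-1 8.0 (fold 5.97), was assigned to that neighbour in both lists.

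The other 5 members kept a promoter flag in both lines. WIF1 had 1 region in each list, on chromosome 10 at 7725674 to 7727250 in the parental line and 7725740 to 7727450 in the resistant one, across the start and first intron. The folds of 11.8 and 8.89 stood at percentiles 83.1 and 88.3. The lists shared 1510 bp there. The region was classed as shore in CLBL-1 and as island in CLBL-1 8.0, whose start was 66 bp further in.

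SFRP2 carried the longest member regions and the lowest folds. Its assigned region covered 1966 bp in CLBL-1 (chromosome 15, 51551649 to 51553615) and 1870 bp in CLBL-1 8.0, in a CpG island and mostly further upstream than 3000 bp. The edge nearest the start lay 2884 bp upstream in CLBL-1 and 2983 bp upstream in CLBL-1 8.0. The promoter flag of SFRP2 thus rests on a narrow overlap with the 3000 bp window, above all in CLBL-1 8.0. The folds were 3.32 and 2.99, at percentiles 14.2 and 10.4 of their lists. Further island regions, 1739 to 2043 bp upstream in CLBL-1 and 1608 to 2016 bp upstream in CLBL-1 8.0, had folds of 2.52 and 2.87. Those just downstream of the SFRP2 start had folds of 2.82 and 2.66. All 4 were assigned to LOC111090101, a predicted gene that starts 412 bp downstream of SFRP2 on the same strand. Within 10 kb of the SFRP2 start, both lists thus held 3 regions, each in an island and below the median fold.

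DKK1, the best-known LRP5 and LRP6 antagonist, had 3 regions in each list, and each of the 3 met its counterpart. The one over the start and first coding sequence, a CpG island region, covered 1255 bp in CLBL-1 (chromosome 26, 35700455 to 35701710, fold 6.07) and 1094 bp in CLBL-1 8.0 (fold 6.53). The regions 1.6 to 2 kb inside the gene had folds of 5.82 and 3.72. An upstream shore region had the highest DKK1 fold in CLBL-1, at 13.6, percentile 88.5. This region, 4923 to 5563 bp upstream of the start, lay outside the promoter window, and its CLBL-1 8.0 counterpart had a fold of 5.38, at percentile 57.2. In CLBL-1 8.0 the highest DKK1 fold was instead at the start, at percentile 72.6.

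DKK2 had 2 promoter regions in each list. The larger spanned the start (chromosome 32, 27646585 to 27647771 in CLBL-1), with folds of 7.29 and 6.11, and was classed as shore in CLBL-1 and as island in CLBL-1 8.0. The smaller, 1410 to 1850 bp upstream in CLBL-1, had folds of 4.99 and 5.01. A further CLBL-1 8.0 region at 27646152 to 27646468, 571 to 887 bp downstream of the start, met no CLBL-1 region. It had a fold of 2.78, was assigned to LOC102157172, and was the only CLBL-1 8.0 region within 1000 bp of a member's start without a counterpart.

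DKK3 had the most regions of any member, 6 in CLBL-1 and 4 in CLBL-1 8.0, and it was the only member with a CLBL-1 region that had no CLBL-1 8.0 counterpart. That region, on chromosome 21 at 35075330 to 35075632, lay 666 to 968 bp upstream of the start, outside islands and shores, with a fold of 5.79 at percentile 48.8. The nearest CLBL-1 8.0 region was 619 bp away. The small region over the start was listed in both lines, with folds of 6.31 and 5.50 and lengths of 289 and 265 bp. The intronic region 1.2 to 1.7 kb downstream had folds of 8.83 and 9.12. It held the highest percentile of the DKK3 regions in CLBL-1 8.0, 88.9. Its percentile in the shorter CLBL-1 list was 70.9.

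Inside the DKK3 gene, the shore region of highest DKK3 fold in CLBL-1, 13.2 at 35050224 to 35051199, overlapped a CLBL-1 8.0 region of fold 7.71 over 951 bp. The latter was assigned to LOC111091557, a predicted gene that lies within DKK3 on the opposite strand. The final pair, near the 3' end of DKK3, had folds of 6.61 and 5.32 in CLBL-1 and of 4.05 and 4.10 in CLBL-1 8.0. The DKK3 counts thus differed by this 1 region assigned elsewhere and by the 1 unmatched upstream region.

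**Figure D2:**
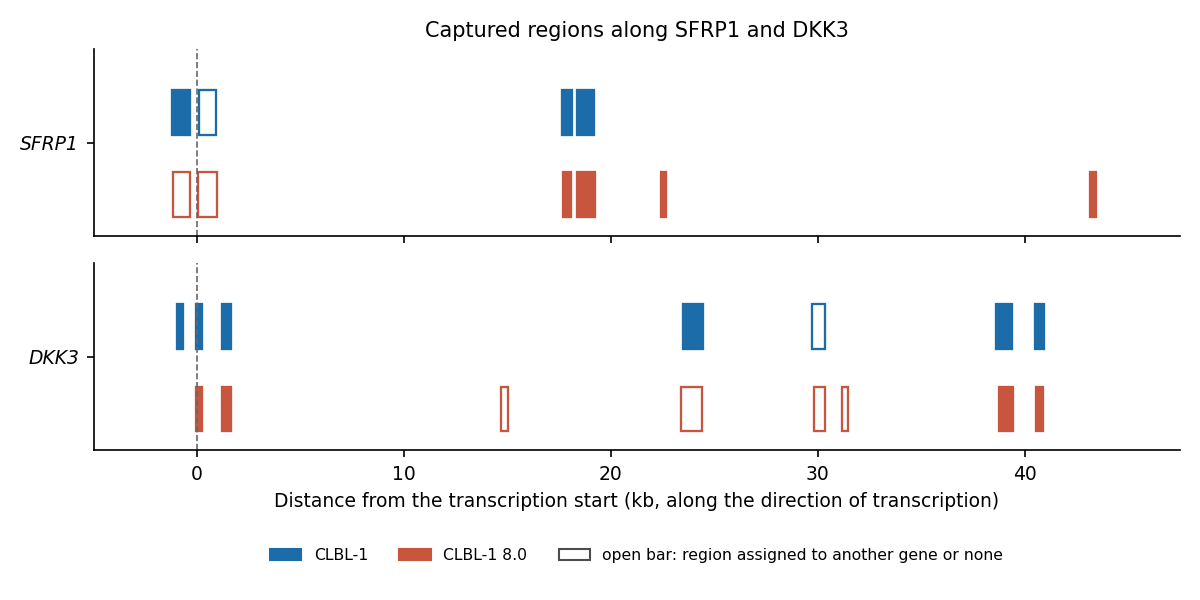
Captured regions along SFRP1 and DKK3, from 5 kb upstream to 46 kb downstream of the transcription start (dashed line; x axis in kb), with CLBL-1 above and CLBL-1 8.0 below in each panel. Filled bars are regions assigned to the gene and open bars regions assigned to another gene or to none. The 2 SFRP1 regions furthest downstream and the open DKK3 bars at about 15 and 31 kb are in CLBL-1 8.0 alone, and the DKK3 bar furthest upstream is in CLBL-1 alone.

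Within the SFRP1 gene, 2 shore regions 17.7 to 19.2 kb downstream of the start were listed in both lines. Their folds were 8.21 and 10.9 in CLBL-1 and 4.55 and 8.19 in CLBL-1 8.0. The 2 SFRP1 regions without a CLBL-1 counterpart lay outside islands and shores, at 24284875 to 24285133 in an intron (fold 3.13) and at 24305635 to 24305893 in the 3'UTR (fold 4.75). Both were 258 bp long, the shortest length in the CLBL-1 8.0 list, and lay 3244 and 9828 bp from the nearest CLBL-1 region.

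Over all 8 genes, 17 of 18 regions of the parental line had a counterpart, 94.4% (Wilson 95% interval 74.2 to 99.0), beside 91.0% of its whole list and 91.2% of its island and shore regions. In the resistant line 14 of 16 had one, 87.5% (64.0 to 96.5), beside 61.6% of its whole list and 88.4% of its island and shore regions. These intervals cover counting error only, treat regions of the same gene as independent and are not a test against the whole list. Islands and shores made up 12 of the 18 CLBL-1 member regions and 10 of the 16 in CLBL-1 8.0, against 53.2% and 37.5% of all regions. No member region carried the enhancer flag, which 5.04% and 5.07% of all regions carried.

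**Figure D3:**
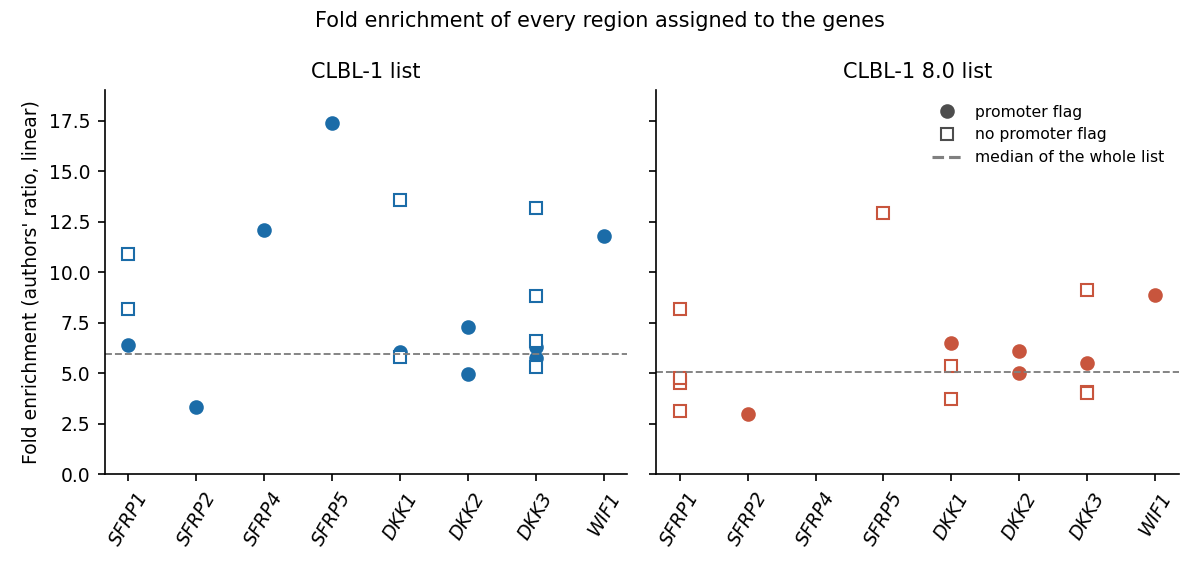
Fold enrichment (the authors' linear ratio, y axis) of each region assigned to the 8 genes (x axis), with CLBL-1 on the left and CLBL-1 8.0 on the right. Circles carry the promoter flag, squares do not, and the dashed line is the median of the whole list. SFRP5 is highest and SFRP2 lowest in both panels, and SFRP4 has no point in CLBL-1 8.0.

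The order of the genes by their highest fold differed in part between the lists. In CLBL-1 it ran SFRP5 (17.4), DKK1 (13.6), DKK3 (13.2), SFRP4 (12.1), WIF1 (11.8), SFRP1 (10.9), DKK2 (7.29) and SFRP2 (3.32). In CLBL-1 8.0 it ran SFRP5 (12.9), DKK3 (9.12), WIF1 (8.89), SFRP1 (8.19), DKK1 (6.53), DKK2 (6.11) and SFRP2 (2.99). SFRP4 is missing from the second order by assignment only. The CLBL-1 8.0 region inside its CLBL-1 region had a fold of 10.0 and was assigned to LOC106559945. With a single value per list, the error of neighbouring genes in these orders is unknown. At or above the median of their own list stood 13 of 18 member regions in CLBL-1 and 8 of 16 in CLBL-1 8.0. These counts follow the assigned gene. The CLBL-1 8.0 counterparts of an SFRP1, an SFRP4 and a DKK3 region, with folds of 5.27, 10.0 and 7.71, were assigned to predicted genes. They are thus left out of the 16, although each lay above the CLBL-1 8.0 median of 5.06.

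The amount of captured DNA at the start differed from gene to gene. Within 1000 bp of the start, CLBL-1 regions covered 1501 bp at WIF1, 1499 bp at SFRP1, 1186 bp at DKK2, 1114 bp at DKK1, 1046 bp at SFRP4, 661 bp at SFRP5, 591 bp at DKK3 and 334 bp at SFRP2. The CLBL-1 8.0 values for the same genes in turn were 1435, 1555, 1408, 1024, 953, 602, 265 and 285 bp. DKK3 was the only member for which 1 list covered more than 1.5 times as much as the other. Of the bases covered in either list, the share covered in both ranged from 44.8% at DKK3 to 96.0% at SFRP1, with a median of 91.1%. The median over 5673 named genes with such regions in both lists was 87.5% (interquartile range 75.6 to 94.1).

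**Figure D4:**
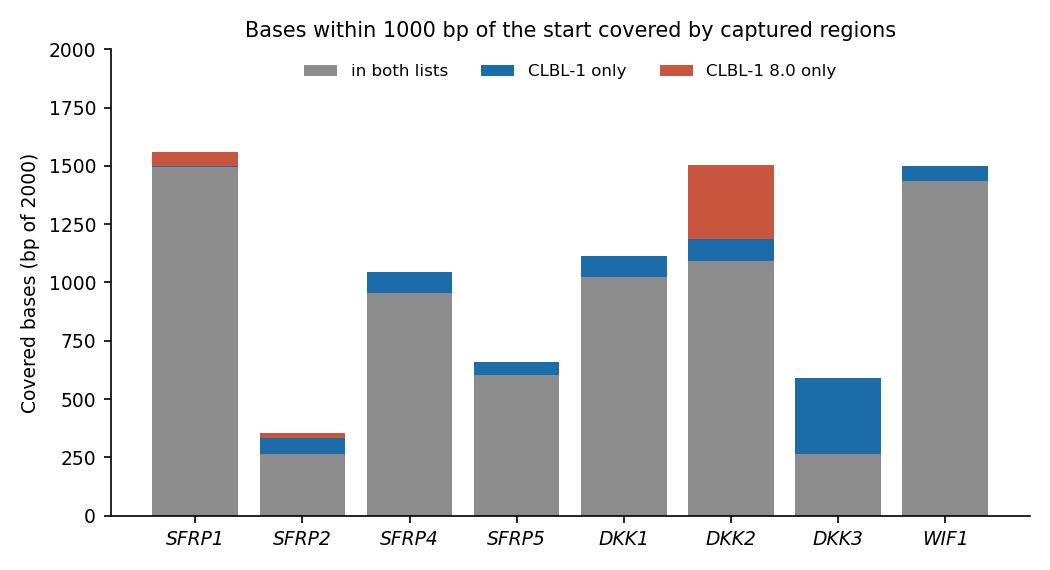
Bases within 1000 bp on either side of the transcription start that lie in captured regions of any assignment (y axis, bp), for each of the 8 genes. Grey is covered in both lists, blue in CLBL-1 only and red in CLBL-1 8.0 only. Grey makes up most of every bar except that of DKK3.

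Several labels changed over nearly the same DNA. Of the 17 pairs of matched regions that hold a member, the assigned gene differed in 3 (SFRP1, SFRP4 and DKK3), the CpG class in 4 (SFRP4, DKK1, DKK2 and WIF1), the location class in 5 and the promoter flag in 1 (SFRP5). Over all 71548 one-to-one pairs the gene differed in 1.84%, the CpG class in 4.59%, the location class in 6.14% and the promoter flag in 0.572%. All 4 changes of CpG class among the members were from shore in CLBL-1 to island in CLBL-1 8.0. The start of the region was 44 to 93 bp further along the chromosome. Over all pairs this direction was also the more frequent, with 2141 changes from shore to island and 970 from island to shore. The starts of the 17 pairs differed by 3 to 99 bp, with a median of 32 bp, and the median over all pairs was 41 bp.

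Pairs with a common start kept their CpG class. Among 497 pairs over all genes with the same start and different ends, the class differed in 0 pairs. Among 511 with the same end and different starts, it differed in 13 (2.54%). SFRP1, SFRP2 and SFRP4 had another gene's start within 1000 bp of their own, which held for 13.7% of named genes.

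**Figure D5:**
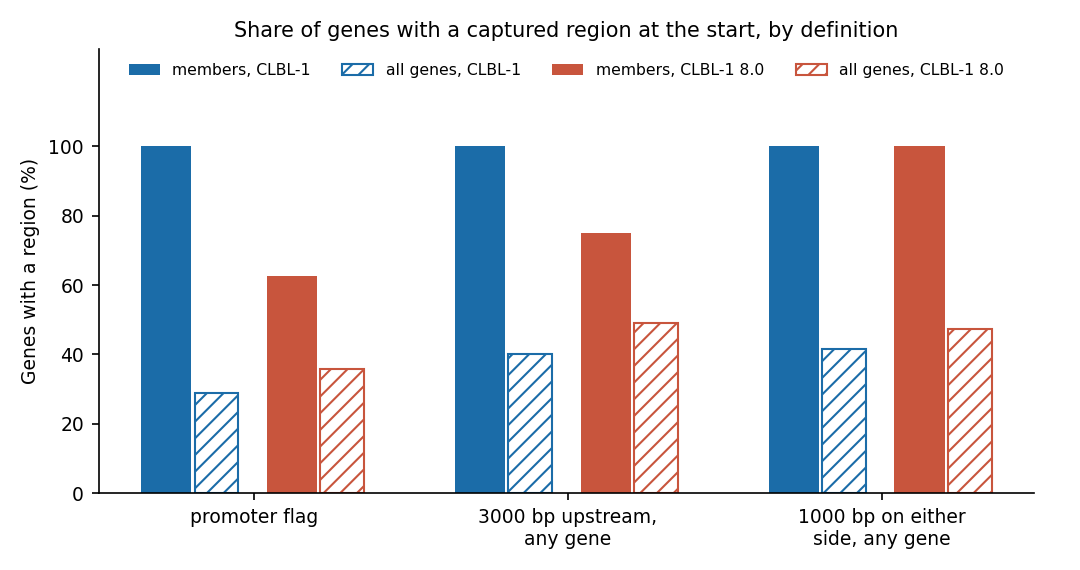
Share of genes (y axis, %) with a captured region at the start under 3 definitions: the promoter flag of the tables, any region in the 3000 bp upstream, and any region within 1000 bp on either side. Filled bars are the 8 members, hatched bars all genes (17395 named protein-coding genes for the flag, 14234 named genes with a placed start otherwise). The members stand at 100% in CLBL-1 under each definition and at 62.5%, 75% and 100% in CLBL-1 8.0.

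Counted by position, the difference between the lines became smaller. Any region in the 3000 bp upstream of the start was found for 8 members in CLBL-1 and for 6 in CLBL-1 8.0, where SFRP1 now had one. SFRP4 and SFRP5 did not, their regions beginning 47 and 23 bp downstream of the start. The shares of all named genes were 40.0% and 49.0%.

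Over a wider window, starts included, the share of matched CLBL-1 8.0 regions was close to that of the whole list. Within 60 kb of the 8 starts there were 35 CLBL-1 regions and 55 CLBL-1 8.0 regions of any assignment. Of these, 34 regions in each list had a counterpart. That was 97.1% in CLBL-1 beside 91.0% of its whole list, and 61.8% in CLBL-1 8.0 beside 61.6%. The 55 CLBL-1 8.0 regions include 10 within 1000 bp of a start, and 1 of these 10 had no counterpart. A share for the regions farther out alone was not computed. Of the 21 CLBL-1 8.0 regions without one, 16 (76.2%) lay outside islands and shores, beside 88.7% of such regions in the whole list. SFRP5 and DKK3 each had 6 of the 21, SFRP1 had 4, SFRP4 had 3, DKK2 and WIF1 had 1 each, and SFRP2 and DKK1 had none. Their folds ranged from 2.78 to 9.18 with a median of 4.12.

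The rest of the Wnt pathway was counted by the promoter flag. Of 18 other extracellular antagonists, 10 were flagged in both lists and 1 in the resistant line alone. FRZB, the Wnt-binding relative also called SFRP3, had an island promoter region in both, with folds of 7.11 and 5.43. DKKL1, a DKK-like gene known from the acrosome, was that gene (chromosome 1, 107114884 to 107115858, 952 bp upstream, shore, fold 9.0). That region met a CLBL-1 region, and the window within 1000 bp of the DKKL1 start held 98 covered bases in CLBL-1 and 48 in CLBL-1 8.0. KREMEN1 and KREMEN2, the receptors that cooperate with DKK1, had a promoter region in both lists, as did NOTUM, an enzyme that removes the lipid of Wnt proteins. DKK4, CER1, NBL1 and TPBG had no region in either list.

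Among 19 Wnt ligand genes, 13 carried the flag in the parental line and 14 in the resistant one. Of 24 receptor and R-spondin genes the numbers were 12 and 13, and of 25 cytoplasmic and nuclear genes they were 10 and 12. In these 3 groups and in the other antagonists, 0 genes were flagged in the parental line alone, against 3 of the 8 members. Over all genes flagged in CLBL-1, 8.39% lacked the flag in CLBL-1 8.0. By position, all 8 members had a region within 1000 bp of the start in both lists. Whether the groups differ in the flag was not tested.

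Genes of like pattern were sought among 14265 other named genes by the distance between 8 numbers per gene, which are the promoter, island or shore and other regions and the log2 of the highest fold in each list. Nearest to SFRP5 were STAC and HTR6, at distances of 0.36 and 0.80. Like SFRP5, both had 1 island or shore region in each list, flagged as promoter in CLBL-1 only. Nearest to SFRP4 were ZNF660 and LNPK, at 0.015 and 0.055, flagged once in the parental line and not in the resistant one. The flag and region counts enter the distance, so these shared patterns follow from the selection and are not a separate finding. WIF1 was nearest to CEP290 and RAB42 and DKK2 to DLX4 and CHSY3. SFRP1 (FGD2, ADRA2A) and DKK3 (ARHGEF19, UNC13D) had their nearest genes at distances above 1.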

How the data were processed

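MethylCap DNA of either line was eluted at low and at high salt and sequenced from both ends (Illumina NovaSeq), giving 4 libraries, per the labels' protocols. BWA, MACS2 and CanFam3.1 are named in the submitters' processing notes; their versions, roles and settings, and any pooling of eluates, are not stated there. The deposited tables hold 1 region per row with the authors' fold enrichment, a linear ratio per the file headers. Read depth is unknown. Coordinates are those of the tables, on CanFam3.1, and whether they count from 0 or 1 is not stated. A sequence of that build was not used here.

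Regions met when they shared at least 1 bp (bedtools 2.31.1). Transcription starts were placed from region start, strand and deposited distance. The promoter flag equalled the 3000 bp upstream window in 99.98% and 99.99% of regions with a gene. Regions flagged both as island and shore were counted as islands, and 2 and 6 rows with displaced cells were given no gene. Symbols were matched to RefSeq (UU_Cfam_GSD_1.0, names only), and all 8 members matched. Python 3.11.15, pandas 2.3.3, numpy 2.4.6, statsmodels 0.14.6 (Wilson intervals) and matplotlib 3.10.9 were used, and the overlap code was tested on simulated data.

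All 8 members were named, with every promoter, start or island region and otherwise the region of highest fold per list, further regions being added. Of the other antagonists, those with a promoter region in 1 list only were named. FRZB, KREMEN1, KREMEN2, NOTUM, DKK4, CER1, NBL1 and TPBG were added after their values were seen. The members and gene lists were chosen with earlier results of these data known. Of the B cell markers examined, not all are reported here.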

Additional observations from a re-analysis of the deposited data

How the results depend on the processing

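No paired analysis was possible because the tables hold a single list per line. Of 58 alternative values, 46 stayed within 1.5 times the reported count or within the interval of the reported share. The alternatives were regions at or above the median fold of their list, lists of equal length, other promoter windows and other overlap rules. For lists of equal length, CLBL-1 8.0 regions below a fold of 4.23 were left out. Some of the 46 were fixed in advance. The CLBL-1 list is not shortened for equal length, so its counts could not change there. SFRP4 had no CLBL-1 8.0 region to lose. Counting any region within 1000 bp of the start raised the count of members with a region at the start in CLBL-1 8.0 from 5 to 8. With lists of equal length, the share of CLBL-1 member regions that met a counterpart fell to 72.2%, and CLBL-1 8.0 held 0 regions for SFRP2 and 2 for DKK3, since regions of low fold are taken from that list alone. At or above the median fold, CLBL-1 8.0 held 8 member regions, and 100% of them met such a region of the other list. There, SFRP2 had 0 regions in either list, DKK2 had 1 in each, and in CLBL-1 8.0 SFRP1 had 1 and DKK3 had 2. Depth is unknown, so neither an absent region nor a region edge has an error.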

Other observations

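Of the 21 CLBL-1 8.0 regions within 60 kb of the starts that had no CLBL-1 counterpart, 3 carried the enhancer flag. The flag was on 5.07% of all CLBL-1 8.0 regions, and its share among all unmatched regions is not given here. Whether 3 of 21 differs from that share was not tested. All 3 lay around SFRP5 and DKK3 and were assigned to no gene. Near SFRP5 they lay at chromosome 28, 10956504 to 10956930 (fold 3.44) and 10960056 to 10960436 (fold 3.28), which is 42.6 and 39.1 kb downstream of the start. Near DKK3 the third lay at chromosome 21, 35098072 to 35098389 (fold 5.27), 23.4 kb upstream. Enhancer-flagged regions were also listed in both lines near each gene. One, assigned to no gene, lay 26.1 kb upstream of DKK3 with folds of 11.0 in the parental and 6.91 in the resistant line. The other, assigned to LOC106557987, lay 44.5 kb downstream of the SFRP5 start with folds of 14.4 and 6.85.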
